A study of Homo sapiens with 8 samples.

Results

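The genes described here are 9 members of the proteoglycan system of the cell surface and extracellular matrix: the syndecans SDC1, SDC2 and SDC4, the glypican GPC1, the basement membrane proteoglycans HSPG2 (perlecan) and AGRN (agrin), the matrix proteoglycan VCAN (versican), the hyaluronan receptor CD44 and the heparin-binding growth factor MDK (midkine). They were taken by gene symbol, and all 9 were found, each once, among the 13771 genes of the deposited table. RNA had been sequenced from 2 human breast epithelial cell lines, each stably transduced with a lentiviral pCDH vector carrying full-length HOTAIR or with the empty pCDH vector and then selected with puromycin. The 4 groups, MCF10A pCDH-empty, MCF10A pCDH-HOTAIR, DCIS.COM pCDH-empty and DCIS.COM pCDH-HOTAIR, had 2 libraries each. MCF10A is a non-tumorigenic line of breast epithelium, and DCIS.COM is a derivative of the MCF10A lineage that forms lesions like ductal carcinoma in situ. The labels do not say whether the transduced lines are clones or pools, nor whether the libraries of a group came from separate cultures, so the p-values below measure only the spread between these libraries. MCF10A was grown with horse serum, epidermal growth factor, hydrocortisone, insulin and cholera toxin, and DCIS.COM with horse serum alone, so that cell line and medium cannot be told apart.

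Proteoglycans are proteins that carry long sulfated sugar chains. Heparan sulfate chains on syndecans and glypicans hold growth factors at the cell surface and present them to their receptors, and those on perlecan and agrin anchor growth factors and laminins in basement membranes. Versican carries chondroitin sulfate, binds hyaluronan and loosens the matrix around migrating cells, while CD44 is the main receptor through which epithelial cells bind hyaluronan. Midkine binds heparan sulfate and chondroitin sulfate chains and signals through several of these proteoglycans. In breast epithelium, syndecan-1 is the abundant syndecan, and CD44 is widely used as a marker of basal and progenitor-like cells.

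HOTAIR, the long non-coding RNA that was introduced, had 45 and 40 reads in the 2 libraries of MCF10A pCDH-empty, and 4614 and 4827 in those of MCF10A pCDH-HOTAIR. It was read 119 and 140 times in DCIS.COM pCDH-empty and 7166 and 6385 times in DCIS.COM pCDH-HOTAIR, so every library fitted its vector label. The reads recovered from the deposited values of the genes analysed here came to 19306864 to 34884841 per library. They were fewest in both libraries of MCF10A pCDH-HOTAIR. One library stood apart: in DCIS.COM pCDH-empty 1, RN7SL1 and RN7SL2, small cytoplasmic RNAs, took 18.9% of these reads, against 11.1% to 14.95% in the other 7 libraries. The median gene differed between the 2 DCIS.COM pCDH-empty libraries by 0.21 on the log2 scale, against 0.06 to 0.08 between the libraries of the other groups. All 7 markers of breast epithelium that were checked (KRT5, KRT14, KRT17, KRT18, TP63, CDH1 and EPCAM) were in the table. Their summed level was 9958 to 11202 CPM (reads of a gene scaled to the size of the library) in MCF10A and 3669 to 4372 CPM in DCIS.COM. The single markers did not all go the way of the sum. With the empty vector KRT18, TP63 and EPCAM were higher in DCIS.COM (log2 fold changes of 1.76, 0.75 and 2.33). KRT5, KRT14, KRT17 and CDH1 were lower (-2.61, -4.66, -2.56 and -0.59). Of 14 markers of fibroblasts, endothelium and leukocytes, only FBLN1, PECAM1 and CD68 were among the genes analysed here. FBLN1 lay at 51.2 to 70.9 CPM in MCF10A and 14.4 to 19.7 CPM in DCIS.COM, PECAM1 at 1.70 to 2.69 and 10.1 to 13.3 CPM, and CD68 at 19.6 to 23.9 and 4.29 to 5.89 CPM. The part of these markers in the differences between the cell lines was not tested.

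The highest levels per length of annotated exon belonged to SDC1, SDC4 and CD44, which lie at the cell surface. CPM divided by the kilobases of annotated exon put SDC4 first in MCF10A pCDH-empty at 124.6 ± 0.754 CPM per kilobase (SD, n = 2), before SDC1 at 91.7 ± 0.581, CD44 at 27.3 ± 2.89, AGRN at 18.9 ± 1.21 and GPC1 at 7.72 ± 0.0228. In DCIS.COM pCDH-empty SDC1 came first at 203.6 ± 2.65 CPM per kilobase, before SDC4 at 86.3 ± 6.48, CD44 at 58.0 ± 5.81, AGRN at 32.3 ± 3.62 and GPC1 at 17.2 ± 2.69. SDC1 and SDC4 thus changed places between the cell lines. The lowest place also differed: it was held by SDC2 in MCF10A pCDH-empty, at 0.179 ± 0.0579 CPM per kilobase, and by MDK in DCIS.COM pCDH-empty, at 0.219 ± 0.0291.

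The order within each cell line was mostly shared by the HOTAIR libraries. In MCF10A pCDH-HOTAIR it ran SDC4, SDC1, CD44, AGRN, GPC1, VCAN, HSPG2, MDK and SDC2, and the only change from the empty vector was that VCAN, at 5.77 ± 0.448 CPM per kilobase, stood above HSPG2 at 3.45 ± 0.498. In DCIS.COM pCDH-HOTAIR it ran SDC1, SDC4, CD44, AGRN, GPC1, SDC2, HSPG2, VCAN and MDK, where HSPG2 and VCAN had again exchanged places. HSPG2 and VCAN were the only neighbours in this order whose libraries overlapped, in both pCDH-empty groups. With the length of the longest transcript in place of all exons, CD44 passed SDC4 and HSPG2 passed VCAN in DCIS.COM pCDH-empty.

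**Figure D1:**
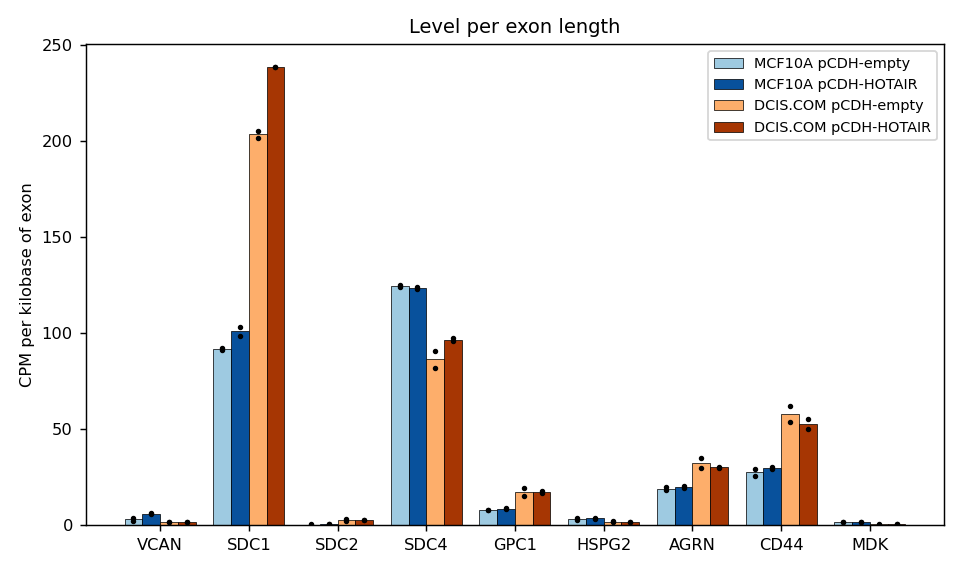
Level of each gene per length in the 4 groups. The y axis gives CPM per kilobase of annotated exon on a linear scale, bars are the means of 2 libraries and dots the libraries. SDC4 is highest in both MCF10A groups (124.6 CPM per kilobase with the empty vector) and SDC1 in both DCIS.COM groups (203.6 and 238.8).

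The comparison of DCIS.COM with MCF10A asked how these genes differ between a line of normal breast epithelium and a line that models ductal carcinoma in situ. A gene was called when its Benjamini-Hochberg adjusted p over all 13771 genes was under 0.05 and its fold change was at least 1.5. With the empty vector, 8 of the 9 members were called, against 46.3% of all genes, 5 of them higher (22.5% of all genes) and 3 lower (23.8% of all genes) in DCIS.COM. With HOTAIR, 8 of the 9 were called, against 43.7% of all genes, again 5 higher (22% of all genes) and 3 lower (21.7% of all genes). In both comparisons SDC2, SDC1, GPC1, CD44 and AGRN were the members called higher and VCAN, HSPG2 and MDK those called lower. The median log2 fold change of the 9 members was 0.77 with the empty vector and 0.59 with HOTAIR, and that of all genes was -0.000117 and 0.00346. In bulk RNA, fewer cells that express a gene and less of its RNA in each cell cannot be told apart.

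**Figure D2:**
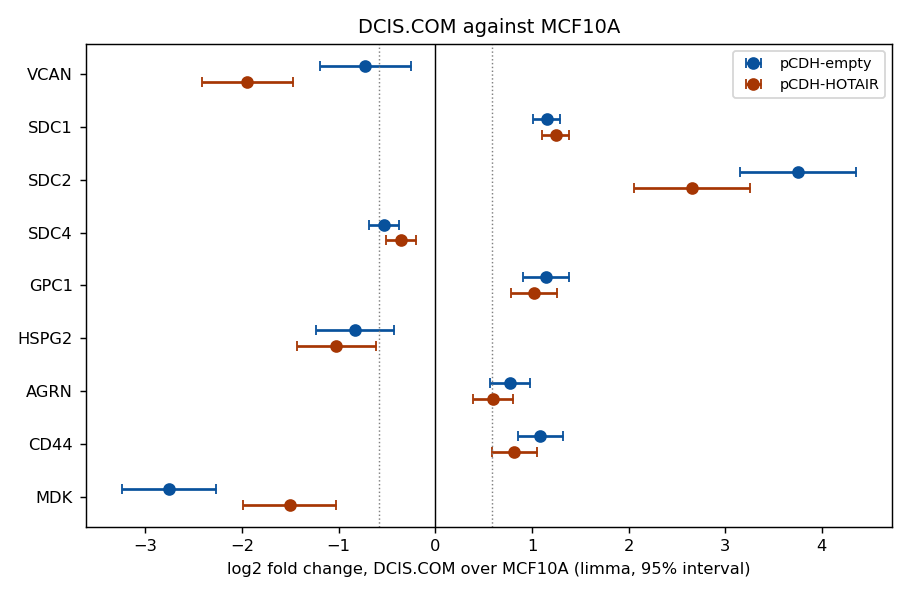
Difference between the cell lines for each gene. The x axis gives the log2 fold change of DCIS.COM over MCF10A with its 95% interval from limma, in blue between the pCDH-empty groups and in brown between the pCDH-HOTAIR groups. Dotted lines mark a fold change of 1.5. SDC2 lies farthest to the right (3.75 with the empty vector) and MDK farthest to the left (-2.76).

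SDC1 encodes syndecan-1, the main transmembrane heparan sulfate proteoglycan of epithelia (chromosome 2, 20400558 to 20425194, minus strand; this and all later positions are those of GENCODE on GRCh37). Its level was 8.38 and 8.37 log2 CPM in MCF10A pCDH-empty, 8.54 and 8.48 in MCF10A pCDH-HOTAIR, 9.54 and 9.51 in DCIS.COM pCDH-empty and 9.75 and 9.75 in DCIS.COM pCDH-HOTAIR. All 4 DCIS.COM libraries lay above all MCF10A libraries, and in each cell line both HOTAIR libraries lay above both controls. SDC1 was 2.22-fold higher in DCIS.COM with the empty vector (log2 fold change 1.15, SE 0.06, limma adjusted p = 9.43e-07) and 2.37-fold higher with HOTAIR (1.24, adjusted p = 6.24e-07). Within the cell lines it stood 0.14 higher on the log2 scale with HOTAIR in MCF10A (adjusted p = 0.689) and 0.23 higher in DCIS.COM (95% interval 0.09 to 0.37, adjusted p = 0.2005), neither of which passed the threshold.

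SDC2 encodes syndecan-2, the syndecan typical of mesenchymal cells, and lies on chromosome 8. It was read 28 and 15 times in MCF10A pCDH-empty, 38 and 27 times in MCF10A pCDH-HOTAIR, 272 and 326 times in DCIS.COM pCDH-empty and 372 and 363 times in DCIS.COM pCDH-HOTAIR. In log2 CPM this was -0.04 and -0.65, then 1.02 and 0.51, then 3.19 and 3.61, and 3.40 and 3.44. The 2 cell lines did not overlap, and within MCF10A neither did the vectors. SDC2 was 13.5-fold higher in DCIS.COM with the empty vector (log2 fold change 3.75, SE 0.26, limma adjusted p = 5.02e-06) and 6.30-fold higher with HOTAIR (2.65, adjusted p = 4.08e-05). Over the alternatives that kept all libraries, these log2 fold changes ran from 2.74 to 3.88 and from 2.14 to 2.69. In MCF10A SDC2 stood 1.12 higher on the log2 scale with HOTAIR (95% interval 0.52 to 1.72), with an unadjusted p of 0.00273 and an adjusted p of 0.313 from limma, and 0.615 higher with log2(CPM + 1). In DCIS.COM the HOTAIR difference was 0.02 (-0.58 to 0.62).

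SDC4 encodes syndecan-4, a partner of integrins at focal adhesions (chromosome 20, 43953928 to 43977064, minus strand). Its level was 8.34 and 8.35 log2 CPM in MCF10A pCDH-empty, 8.33 and 8.34 in MCF10A pCDH-HOTAIR, 7.74 and 7.89 in DCIS.COM pCDH-empty and 7.99 and 7.97 in DCIS.COM pCDH-HOTAIR. SDC4 was the syndecan among the members that stood lower in DCIS.COM, in every library. Its log2 fold change was -0.53 with the empty vector (limma adjusted p = 1.74e-04) and -0.36 with HOTAIR (adjusted p = 0.0018), both under the fold threshold of 1.5. Without DCIS.COM pCDH-empty 2 the first of these was -0.61, which lay beyond the fold threshold. The HOTAIR difference was -0.01 in MCF10A (95% interval -0.17 to 0.14; 0.00703 with quantile normalization) and 0.17 in DCIS.COM (0.01 to 0.32, limma unadjusted p = 0.0393, adjusted p = 0.275).

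GPC1 encodes glypican-1, which is held in the membrane by a lipid anchor (chromosome 2, 241375080 to 241407493, plus strand). Its level was 5.66 and 5.65 log2 CPM in MCF10A pCDH-empty, 5.83 and 5.77 in MCF10A pCDH-HOTAIR, 6.96 and 6.64 in DCIS.COM pCDH-empty and 6.78 and 6.86 in DCIS.COM pCDH-HOTAIR. The cell lines did not overlap. GPC1 was 2.21-fold higher in DCIS.COM with the empty vector (log2 fold change 1.15, SE 0.10, limma adjusted p = 2.27e-05) and 2.03-fold higher with HOTAIR. The HOTAIR differences were 0.14 in MCF10A, where both HOTAIR libraries lay above both controls (95% interval -0.09 to 0.38), and 0.02 in DCIS.COM (-0.22 to 0.26).

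The 2 large basement membrane proteoglycans differed between the cell lines in opposite directions. AGRN encodes agrin, known as the organiser of the neuromuscular junction and also a component of epithelial basement membranes (chromosome 1, 955500 to 991498, plus strand). It was read at 7.60 and 7.73 log2 CPM in MCF10A pCDH-empty, 7.79 and 7.70 in MCF10A pCDH-HOTAIR, 8.55 and 8.32 in DCIS.COM pCDH-empty and 8.33 and 8.35 in DCIS.COM pCDH-HOTAIR. AGRN was 1.71-fold higher in DCIS.COM with the empty vector (log2 fold change 0.77, limma adjusted p = 1.01e-04) and 1.51-fold higher with HOTAIR (0.59, adjusted p = 4.83e-04). The second value lay just above the fold threshold and fell under it without MCF10A pCDH-HOTAIR 2 (0.553), without DCIS.COM pCDH-HOTAIR 2 (0.584) and with a correction for GC content (0.519).

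HSPG2 encodes perlecan, a heparan sulfate proteoglycan of basement membranes (chromosome 1, 22148737 to 22263803, minus strand). It was read at 5.48 and 5.97 log2 CPM in MCF10A pCDH-empty, 6.11 and 5.81 in MCF10A pCDH-HOTAIR, 5.04 and 4.75 in DCIS.COM pCDH-empty and 4.98 and 4.89 in DCIS.COM pCDH-HOTAIR. All DCIS.COM libraries lay below all MCF10A libraries. HSPG2 was 1.78-fold lower in DCIS.COM with the empty vector (log2 fold change -0.83, SE 0.17, limma adjusted p = 0.00313) and 2.03-fold lower with HOTAIR (-1.02, adjusted p = 0.00106). The vectors overlapped in both cell lines for AGRN and for HSPG2, and the 95% intervals of the HOTAIR differences, taken over both cell lines, ran from -0.30 to 0.29 on the log2 scale for AGRN and from -0.36 to 0.64 for HSPG2.

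VCAN encodes versican, a large chondroitin sulfate proteoglycan (chromosome 5, 82767437 to 82878122, plus strand). It was read at 4.98 and 5.73 log2 CPM in MCF10A pCDH-empty and at 6.32 and 6.48 in MCF10A pCDH-HOTAIR. In DCIS.COM it was read at 4.63 and 4.63 with pCDH-empty and at 4.51 and 4.4 with pCDH-HOTAIR. The 4 groups did not overlap, and MCF10A pCDH-HOTAIR held the highest libraries and DCIS.COM pCDH-HOTAIR the lowest. VCAN was 1.65-fold lower in DCIS.COM with the empty vector (log2 fold change -0.72, SE 0.21, limma adjusted p = 0.0138) and 3.85-fold lower with HOTAIR (-1.94, adjusted p = 6.35e-05). The first of these fell under the fold threshold without MCF10A pCDH-empty 2 (-0.35) and missed the adjusted p threshold when only the libraries compared were fitted (adjusted p = 0.0503).

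CD44, the hyaluronan receptor (chromosome 11, 35160429 to 35253949, plus strand), was read at 7.98 and 8.20 log2 CPM in MCF10A pCDH-empty and at 8.19 and 8.24 in MCF10A pCDH-HOTAIR. In DCIS.COM it was read at 9.28 and 9.07 with pCDH-empty and at 9.10 and 8.96 with pCDH-HOTAIR. The cell lines did not overlap, whereas the vectors did in both. CD44 was 2.12-fold higher in DCIS.COM with the empty vector (log2 fold change 1.09, SE 0.10, limma adjusted p = 2.86e-05) and 1.76-fold higher with HOTAIR (0.82, adjusted p = 1.61e-04). The HOTAIR difference was 0.13 in MCF10A (95% interval -0.11 to 0.36) and -0.14 in DCIS.COM (-0.38 to 0.09). The table gives 1 value per gene, so the standard and variant forms of CD44, which arise by alternative splicing, were not separated.

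MDK encodes midkine, a secreted growth factor that binds sulfated sugar chains (chromosome 11, 46402306 to 46405387, plus strand). It was read 108 and 101 times in MCF10A pCDH-empty, 61 and 60 times in MCF10A pCDH-HOTAIR, 13 and 14 times in DCIS.COM pCDH-empty and 44 and 29 times in DCIS.COM pCDH-HOTAIR. In log2 CPM this was 1.82 and 1.95, then 1.69 and 1.62, then -0.99 and -0.75, and 0.39 and -0.10. None of the 4 groups overlapped, and the order ran from MCF10A pCDH-empty down to DCIS.COM pCDH-empty. MDK was 6.76-fold lower in DCIS.COM with the empty vector (log2 fold change -2.76, SE 0.21, limma adjusted p = 8.66e-06) and 2.84-fold lower with HOTAIR (-1.51, adjusted p = 3.23e-04). With log2(CPM + 1), which damps genes with few reads, the first of these was -1.65.

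**Figure D3:**
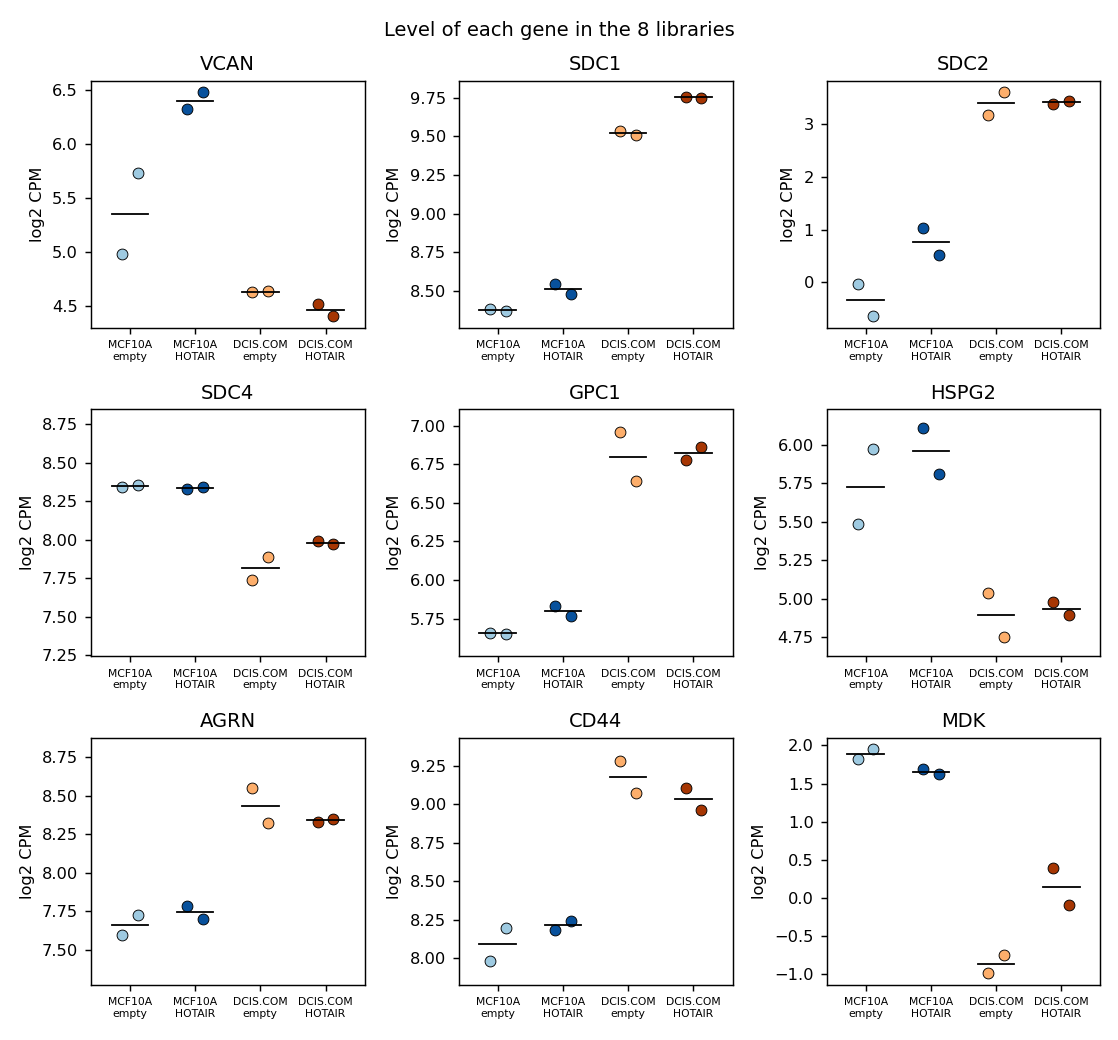
Level of each gene in every library. The y axis of each panel gives log2 CPM on its own range, dots are libraries and lines the means of the 2 libraries of a group. The MCF10A and DCIS.COM libraries stand apart in all 9 panels (70.2% of all genes), and the vectors stand apart in both cell lines for VCAN (4.98 and 5.73 against 6.32 and 6.48 in MCF10A), SDC1 and MDK (23.1% of all genes).

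The second question was what HOTAIR over-expression did to these genes in each cell line. In MCF10A none of the 9 members was called, against 0.0218% of all genes. At an unadjusted p under 0.05 in limma there were 2 (SDC2 and VCAN, against 7.28% of all genes). With limma-voom on the recovered reads, 0 members and 5 of all genes were called. Both HOTAIR libraries lay above both controls for 4 members (SDC1, SDC2, GPC1 and VCAN; 22.5% of all genes) and below them for 1 (MDK; 24.8% of all genes). The largest differences were those of SDC2, given above, and VCAN. VCAN stood 1.05 higher on the log2 scale, a 2.07-fold difference (SE 0.21, 95% interval 0.57 to 1.52, unadjusted p = 9.82e-04, limma adjusted p = 0.225). The VCAN difference was 0.67 without MCF10A pCDH-empty 1 and 1.42 without MCF10A pCDH-empty 2. When either DCIS.COM pCDH-empty library was left out, the VCAN difference stayed at 1.05 and only the estimate of spread changed. Whether a gene passed the threshold in these fits depended on that estimate, and no call of VCAN is drawn from them. In these fits the lone DCIS.COM pCDH-empty library was assumed to vary like the other groups.

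In DCIS.COM again none of the 9 members was called, against 0.0871% of all genes. The paper, which tested with edgeR, reported more changed genes in each cell line than were called here. It named MDK, and of the proteases described below MMP2 and MMP14, among those upregulated in DCIS.COM. The reason for the different calls was not tested. With limma-voom, 0 members and 12 of all genes were called. At an unadjusted p under 0.05 in limma there were 3, all higher with HOTAIR (MDK, SDC1 and SDC4, against 17.5% of all genes). Both HOTAIR libraries lay above both controls for these 3 members (24.7% of all genes) and below them for VCAN alone (24.5% of all genes). MDK stood 1.02 higher on the log2 scale, a 2.02-fold difference (SE 0.21, 95% interval 0.53 to 1.5, unadjusted p = 0.00131, limma adjusted p = 0.147). The reads behind it were few, 13 and 14 against 44 and 29, and with log2(CPM + 1) the difference was 0.47. Without DCIS.COM pCDH-empty 2 it was 1.14 and was called (adjusted p = 0.00718), in a fit that called 10.2% of all genes. The control that remained there was the library with the high share of RN7SL1 and RN7SL2 reads, whose part in the result was not tested.

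**Figure D4:**
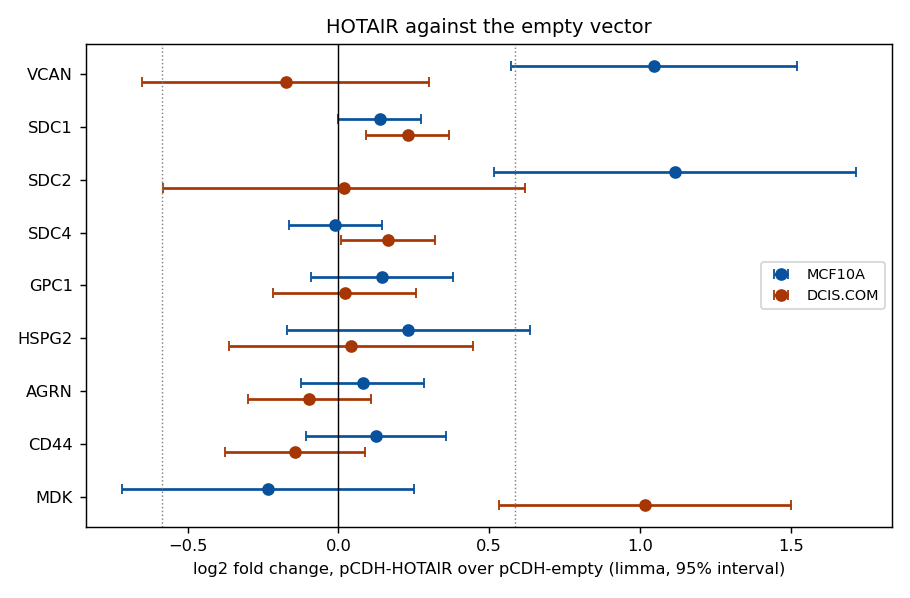
Difference between the vectors for each gene. The x axis gives the log2 fold change of pCDH-HOTAIR over pCDH-empty with its 95% interval from limma, in blue for MCF10A and in brown for DCIS.COM, and dotted lines mark a fold change of 1.5. VCAN (1.05) and SDC2 (1.12) lie to the right in MCF10A and MDK (1.02) in DCIS.COM, and none of the 9 genes was called in either cell line.

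Whether HOTAIR acted differently in the 2 cell lines was tested as the difference of the HOTAIR effects, DCIS.COM minus MCF10A. No member passed an adjusted p under 0.05, against 0.0436% of all genes. With limma-voom, 0 members and 5 of all genes passed. There were 3 members with an unadjusted p under 0.05 in limma, against 10.5% of all genes. These were VCAN with a difference of -1.22 (95% interval -1.89 to -0.55, unadjusted p = 0.00308, adjusted p = 0.302), MDK with 1.25 (0.57 to 1.93, unadjusted p = 0.0030, adjusted p = 0.302) and SDC2 with -1.10 (-1.94 to -0.25, unadjusted p = 0.0178, adjusted p = 0.429). With log2(CPM + 1) the difference was 0.651 for MDK and -0.598 for SDC2. VCAN and MDK were the 2 members whose vectors stood apart in opposite directions in the 2 cell lines, as did those of 11% of all genes. The 95% interval of the HOTAIR difference included 0 for VCAN in DCIS.COM (-0.65 to 0.30) and for MDK in MCF10A (-0.72 to 0.25). Without DCIS.COM pCDH-empty 2, 6 members passed (VCAN, MDK, SDC4, GPC1, AGRN and CD44), in a fit that called 32.1% of all genes, and without any other single library 0 members passed.

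Around these members, 98 other genes of proteoglycan biology were in the table, in 9 lists. With the empty vector, 27 of the 98 were called higher and 35 lower in DCIS.COM, together 63.3% of them against 46.3% of all genes, and their median log2 fold change was -0.22. Without DCIS.COM pCDH-empty 1 these counts were 27 and 36. When HOTAIR was compared with the empty vector within each cell line, 1 of the 98 was called, MMP14 in DCIS.COM (0.0871% of all genes were called there). In the same comparisons limma gave an unadjusted p under 0.05 for 17 of the 98 in MCF10A (17.3%, against 7.28% of all genes). In DCIS.COM it did so for 25 (25.5%, against 17.5% of all genes).

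Among the 7 other heparan sulfate proteoglycans in the table, 2 were called higher and 3 lower in DCIS.COM with the empty vector, with a median log2 fold change of -0.23. For this list and those below, the shares of all genes were 22.5% called higher and 23.8% called lower. GPC4, another glypican, had no read in any MCF10A library and 219 and 249 as its lowest and highest reads in DCIS.COM pCDH-empty. Set against a floor of 3 reads over the MCF10A pCDH-empty group, this was at least 158.5-fold higher. COL18A1, the basement membrane collagen from which endostatin is cut, rose from 1.81 and 1.22 log2 CPM to 5.86 and 5.91 (log2 fold change 4.37, limma adjusted p = 2.35e-07). SRGN, serglycin of secretory granules, was lower, at 2.02 and 1.85 in MCF10A and -0.99 and -1.59 in DCIS.COM. SDC3, the remaining syndecan, fell from 6.68 and 6.65 to 3.6 and 3.70 log2 CPM (log2 fold change -3.01, limma adjusted p = 4.15e-08). Of the 4 syndecans, then, SDC1 and SDC2 were called higher in DCIS.COM and SDC3 lower, and SDC4 was lower under the fold threshold.

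Of the 8 other chondroitin, dermatan and keratan sulfate proteoglycans in the table, 4 were called higher and 2 lower, with a median of 1.53. CSPG4, a membrane chondroitin sulfate proteoglycan also called NG2, fell from 4.95 and 4.99 log2 CPM in MCF10A pCDH-empty to 1.26 and 0.50 in DCIS.COM pCDH-empty (log2 fold change -4.09, limma adjusted p = 2.75e-06). PTPRZ1, a receptor phosphatase that carries chondroitin sulfate and binds midkine and pleiotrophin, rose from 5 to 9 reads to 1149 to 1166 reads. CD74, the invariant chain of class II histocompatibility molecules, which can carry chondroitin sulfate, rose from 13 to 16 reads to 620 to 721.

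The enzymes that build and edit the sugar chains were called in both directions, as genes of the whole table were (22.5% higher and 23.8% lower). Of the 22 linker and heparan sulfate chain enzymes in the table, 8 were called higher and 4 lower in DCIS.COM with the empty vector (median -0.01). HS3ST3A1, which adds the 3-O-sulfate groups of heparan sulfate, fell from 4.13 and 4.30 to 0.10 and 0.16 log2 CPM (log2 fold change -4.09, limma adjusted p = 6.75e-08). HPSE, the heparanase that cuts the chains, fell by 1.84 on the log2 scale (limma adjusted p = 2.83e-06), and EXTL1, a relative of the chain-polymerising exostosins, rose from 4 to 6 reads to 297 to 306. Of the 15 chondroitin and dermatan sulfate chain enzymes, 5 were called higher and 8 lower (median -0.63). The sulfotransferases CHST11 and CHST15 fell by 4.01 and 3.87 on the log2 scale (limma adjusted p = 1.56e-07 and 1.44e-07). The chondroitin synthase CHSY3 had no read in MCF10A and was at least 100.0-fold higher in DCIS.COM pCDH-empty against the same floor.

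The partners of CD44 and hyaluronan were likewise called in both directions, beside 22.5% of all genes higher and 23.8% lower. Of 11 genes for hyaluronan synthesis, turnover and binding, 4 were called higher and 3 lower (median -0.37). Of the hyaluronan synthases, HAS2 fell from 2.85 and 3.17 to 0.27 and 0.71 log2 CPM (log2 fold change -2.52, limma adjusted p = 2.48e-05), while HAS3 rose from 1.0 and 1.02 to 3.62 and 3.38 (2.49, adjusted p = 1.15e-06). TNFAIP6, which binds hyaluronan and stabilises its matrix, fell from 187 to 240 reads to 3 to 4. Of 7 genes that link CD44 to the cytoskeleton or regulate its splicing, 1 was called higher, the ankyrin ANK3 (1.48), and 2 lower, moesin MSN (-1.42) and radixin RDX (-0.74). RDX fell under the fold threshold without DCIS.COM pCDH-empty 1 (-0.536) and with the GC correction (-0.421), and without DCIS.COM pCDH-empty 2 a second gene was called higher, NF2, named after its values were seen.

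Midkine and pleiotrophin receptors were represented by 9 genes, of which 1 was called higher (PTPRZ1, above) and 4 lower in DCIS.COM with the empty vector (median -0.03). The lower genes included the integrin subunits ITGA4 (log2 fold change -2.18, limma adjusted p = 3.40e-04) and ITGB1 (-1.73, adjusted p = 7.03e-07) and SDC3. In the basement membrane list, which holds the laminin, collagen and nidogen partners of agrin and perlecan, 1 of 12 genes was called higher and 6 were lower (median -0.66). NID2, a nidogen, fell from 3.32 and 3.68 to -1.43 and -0.50 log2 CPM. LAMA3, a chain of the laminin of epithelial anchoring contacts, fell by 3.73 on the log2 scale (limma adjusted p = 8.05e-08).

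Of 9 proteases that can cut versican or shed syndecans, 2 were called higher and 4 lower in DCIS.COM with the empty vector (median -0.39). MMP7, matrilysin, rose from 0.95 and 1.35 to 5.90 and 6.20 log2 CPM (log2 fold change 4.90, limma adjusted p = 8.51e-08), and ADAMTS1, a versicanase, had 1 to 2 reads in MCF10A pCDH-empty and 100 to 108 in DCIS.COM pCDH-empty. MMP2 and MMP14 were lower, by -1.98 and -1.79. With HOTAIR in DCIS.COM, 6 of the 9 proteases stood higher and 3 lower. At an unadjusted p under 0.05 in limma there were 4 higher and 2 lower (17.5% of all genes in either direction). The largest difference was that of ADAMTS4, named after its values were seen. It was -0.92 (limma unadjusted p = 0.00354, adjusted p = 0.186), on 28 to 44 reads with the empty vector and 20 to 23 with HOTAIR. MMP2 was among the higher ones, by 0.68 on the log2 scale (limma unadjusted p = 0.00139, adjusted p = 0.147), and was not called. In MCF10A it stood 0.32 higher with HOTAIR (limma adjusted p = 0.694). MMP14, the membrane-anchored protease that activates MMP2, was also the gene of these lists called with HOTAIR: it rose from 5.30 and 5.44 to 6.03 and 5.96 log2 CPM in DCIS.COM (log2 fold change 0.63, SE 0.07, limma adjusted p = 0.0271). That call was lost in 7 of the 8 fits that left out a library, the exception being the fit without DCIS.COM pCDH-empty 2. In MCF10A, MMP14 was 7.14 and 7.18 with the empty vector and 7.34 and 7.38 with HOTAIR (0.20, limma adjusted p = 0.569). FBLN1, a fibulin of basement membranes, and ITGB1 also stood higher with HOTAIR at an unadjusted p under 0.05 in both cell lines, FBLN1 by 0.30 and 0.34 and ITGB1 by 0.21 and 0.20, with limma adjusted p of 0.231 or more. Over the alternatives that kept all libraries, the lowest ITGB1 differences were 0.091 in MCF10A and 0.038 in DCIS.COM. Those of FBLN1 were 0.262 and 0.293.

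For 7 of the members, the 3 genes with the most similar profile are given here, by the Euclidean distance between mean-centred log2 CPM over the 8 libraries, as a description. The nearest to VCAN were MAP1B, CDH2 and SRPX, at distances of 0.547 to 0.729, against a length of 2.23 for the profile of VCAN itself. The nearest to MDK were IFI16, SAMD9L and KITLG (0.494 to 0.563, against 3.21), and those of SDC2 were SYT7, GPM6B and LOC150051 (0.582 to 0.711, against 4.71). SDC1 lay nearest to TGFA, ERF and DNAJB11, SDC4 to COPB1, TTC37 and SYF2, and GPC1 to DCAF7, PYGB and CHPF. AGRN lay nearest to ALDH18A1, SEPTIN9 and PPP5C. All these distances rest on the same 8 libraries.

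Annotated genes overlap 7 of the 9 members: VCAN-AS1 at VCAN, CD44-AS1, CD44-DT and an unnamed long non-coding RNA at CD44, GPC1-AS1 and MIR149 at GPC1, LDLRAD2 and RPL21P29 at HSPG2, CHRM4 at MDK, and unnamed long non-coding RNAs at AGRN and SDC4. None of them was among the genes analysed here. The sources used here do not say whether reads were counted by strand, so that reads from the genes on the opposite strand (VCAN-AS1, CD44-AS1, CD44-DT, GPC1-AS1, LDLRAD2, RPL21P29 and CHRM4) could not be told apart from those of the member.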

How the data were processed

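Paired-end ScriptSeq libraries had been aligned to hg19, counted with featureCounts and normalized with edgeR by the authors, who deposited log2 CPM values for 13771 genes. In 2 or more libraries, every gene exceeded a CPM of 0.5, and 343 genes lacked a symbol. Every deposited log2 value was a whole number of reads (within 0.1 read) plus a shared prior, and these reads were recovered. The 9 members and the gene lists were chosen with earlier results of these data known. limma 3.58.1 in R 4.3.3 was fitted to all 8 libraries (4 group means, empirical Bayes with trend) and tested on simulated reads. With 2 libraries against 2, an exact permutation test cannot go below p = 0.333, so none was used. The comparisons were pCDH-HOTAIR against pCDH-empty within each cell line, DCIS.COM over MCF10A with each vector, and the difference of the HOTAIR effects; that difference had no fold threshold. Alternatives were other scalings, log2(CPM + 1), a mean CPM of at least 2, no trend, a replicate block, only the libraries compared, other fold thresholds, limma-voom, a GC correction and each library left out. From each list were named the 3 called genes with the largest difference between the cell lines with the empty vector, genes called with HOTAIR, and genes with an unadjusted p under 0.05 in the same direction in both HOTAIR comparisons. Some results that this rule selects are not reported here. Lengths and positions came from GENCODE release 44 lifted to GRCh37. Reads without molecular identifiers are not independent molecules, so the floor of 3 reads covers counting error only.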

Additional observations from a re-analysis of the deposited data

Results flagged for a closer look

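For VCAN and MDK the HOTAIR libraries lay on opposite sides of their controls in the 2 cell lines, without overlap, a pattern that 11% of all genes showed. VCAN was higher with HOTAIR in both MCF10A libraries and lower in both DCIS.COM libraries, and the difference of the HOTAIR effects, DCIS.COM minus MCF10A, was -1.22 on the log2 scale. MDK was lower with HOTAIR in both MCF10A libraries and higher in both DCIS.COM libraries, with a difference of 1.25, which was 0.651 with log2(CPM + 1). In limma neither difference passed the correction over all genes (adjusted p = 0.302 for each), and over the alternatives that kept all libraries the adjusted p ran from 0.122 to 0.329 for VCAN and from 0.164 to 0.420 for MDK. Without DCIS.COM pCDH-empty 2 both passed, at 0.0182 for VCAN and 0.0123 for MDK, in a fit that called 4414 genes (32.1%) and kept as its lone DCIS.COM control the library with the high share of RN7SL1 and RN7SL2 reads. Without any other single library neither passed.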

How the results depend on the processing

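Over all alternatives, 828 differences of the 9 members were recomputed, and many of them could not change direction. Other fold thresholds, no trend, the replicate block, the mean CPM filter and only the libraries compared kept the log2 fold changes of the main fit. A left-out library also did not move a comparison that did not use it. Of the 828, 787 kept the direction and the side of the threshold, a count that therefore does not measure robustness. Of the others, 16 lost their call, 12 gained one and 13 changed sign, none of them a called difference. With quantile normalization the HOTAIR difference became 0.00703 for SDC4 in MCF10A and -0.0239 for SDC2 in DCIS.COM, and with the GC correction that of SDC2 became -0.0715. With only the libraries compared, VCAN lost its call between the lines with the empty vector (limma adjusted p = 0.0503). A log2 fold change of at least 1.5 left 2 members called with the empty vector and 3 with HOTAIR, and 2418 and 2357 of all genes; in the HOTAIR comparisons it left 1 gene in each cell line.

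Of all genes, 3 were called with HOTAIR in MCF10A, 12 in DCIS.COM and 6 in the difference. With log2(CPM + 1) these counts were 6 in MCF10A and 10 in the difference, and without the trend 6 in DCIS.COM and 0 in the difference. With only the libraries compared 1 gene was called in MCF10A and 0 in DCIS.COM, limma-voom called 5 in MCF10A, and the GC correction gave 11, 48 and 24. With the replicate block 20 genes were called in DCIS.COM and 0 in the difference, and no call of a member changed. Deviations of same-numbered libraries correlated by -0.016 to 0.066 over the genes, which gave no sign of pairing. Each group gave only a single deviation per gene, so this cannot exclude that same-numbered libraries were handled together.

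With 1 library left out, the genes called ranged from 1 to 51 in MCF10A (members 0 to 1), from 1 to 1403 in DCIS.COM (members 0 to 1) and from 0 to 4414 in the difference (members 0 to 6), the highest counts without DCIS.COM pCDH-empty 2. Differences that changed sign were, with HOTAIR in MCF10A, HSPG2 (-0.0123 to 0.477); with HOTAIR in DCIS.COM, SDC2 (-0.192 to 0.232), GPC1 (-0.14 to 0.181), HSPG2 (-0.104 to 0.187) and AGRN (-0.211 to 0.0186); and in the difference, GPC1 (-0.284 to 0.0371) and HSPG2 (-0.435 to 0.0536). MMP14 lost its call in DCIS.COM without the trend (adjusted p = 0.113) and with only the libraries compared (0.553). The cause of these changes was not tested. SDC2 in MCF10A and MDK in DCIS.COM had 13 to 44 reads per library.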
